A study of Mus musculus with 32 samples.

Results

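Genes of the mitotic spindle, the kinetochore and condensin were followed through 3 array experiments on mouse B-lineage cells. The set holds 44 genes that share these functions and were chosen with earlier results of these data known. Of these 43 could be measured, among 18194 genes in all, through probe sets that match no other gene. Ccnb1, the main B-type cyclin partner of Cdk1, had no such probe set and was not analysed here. Each gene was read from its most variable probe set in the experiment concerned. The genes fall into 7 sub-groups: 10 mitotic kinases, cyclins and Cdc25 phosphatases (9 measured), 5 spindle checkpoint genes, 7 kinesins, 8 kinetochore and centromere genes, 6 genes of condensin and topoisomerase, 4 of spindle assembly and the chromosomal passenger complex, and 4 that act at anaphase onset.

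Entry into mitosis is driven by cyclin-dependent kinase activity, which Cdc25 phosphatases release and the Aurora and Polo kinases extend. Condensin and topoisomerase compact and untangle the chromosomes, kinesins build the spindle, and the kinetochore holds each chromosome to spindle microtubules while the checkpoint delays anaphase until all are attached. The anaphase promoting complex then marks securin and the cyclins for destruction. Most of these transcripts rise late in the cell cycle in dividing cells, under control of the MuvB complex with B-Myb and FoxM1, and early B-lineage progenitors go through bursts of division.

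The first experiment used the pre-B cell line 230238 infected with the retroviral vector pMIG carrying Ebf1-engrailed, a fusion of the B-lineage transcription factor Ebf1 to a repressor domain (Ebf1-Eng, 3 arrays), or with pMIG alone (empty vector, 3 arrays), each from 500000 GFP-sorted cells. The second used Ebf1-/- fetal liver (E14.5) cells on the C57BL/6J background, all infected with pMIG-Ebf1-ER, an Ebf1 form switched on by 4-hydroxytamoxifen, GFP-sorted and grown on OP9 stromal cells with KIT ligand, FLT3 ligand and interleukin-7. These were harvested 0, 6, 12 and 24 h after 0.1 uM of the drug, with 2 arrays per time. Times were set against 0 h of the same cells, and no arrays of untreated cells at later times were used here, so the effect of Ebf1-ER and that of time in culture cannot be told apart. The third used cells of enlarged lymph nodes from 8 C57BL/6 Ebf1+/-Pax5+/- mice of about 30 weeks (2 arrays each) and sorted pro-B cells of wild-type C57BL/6 mice (WT, 2 arrays). The node cells were frozen, thawed and sorted only for viability, so group, cell mixture and handling cannot be told apart in that experiment.

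All values are differences on the log2 scale. Because every probe set had been centred within its experiment before deposit, levels, and whether a marker gene was at 0, could not be read and the labelled cell types could be checked only by differences. Per-array values below are given relative to the mean of the empty vector arrays, of the 0 h arrays or of the WT arrays. Changes carry limma's standard error, and a gene was called at a Benjamini-Hochberg adjusted p under 0.05 over all genes. Ebf1 itself lay at -1.90, -2.19 and -1.22 with Ebf1-Eng, against 0.14, -0.24 and 0.10 with the empty vector, and 4 of its 5 probe sets were called lower. In the Ebf1-ER course 4 of 5 were likewise called lower at 24 h than at 0 h. In the lymph nodes 4 of its 5 probe sets were called lower by 0.72 to 1.01, while the remaining probe set was called higher by 4.48. Transcripts of the vector and of the cell's own locus cannot be told apart.

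Since the members moved together in the cultured cells, their promoters are shown first. Of the 43 measured genes 35 had an entry in the RefSeq promoter table (build GRCm38.p6, 250 bases before to 50 after the transcription start, the first entry per gene). Both strands were searched for TTTGAA, the core of the cell-cycle genes homology region that the MuvB complex binds, and for CCAAT, the core of the NF-Y site. TTTGAA stood in 24 of the 35 promoters (68.6%), against 18.1% of all 27025 promoters and 13.4% of the 14453 genes tested on the arrays. CCAAT stood in 27 (77.1%), against 37.9% of all promoters. Both words together stood in 22 (62.9%), against 7.12% of all promoters. For scale, 32 DNA replication genes held TTTGAA in 18.8% and CCAAT in 65.6%. These are matches of letters and do not show binding. The lines below give 180 bases before to 25 after the start for 5 genes with unlike courses in the Ebf1-ER cells: 3 that fell at 6 h and were late to rise or stayed low (Ccnb2, Cdc20, Cenpa) and 2 that had not fallen at 6 h on the probe set used and had made most of their rise by 12 h (Ncapg, Top2a). Capitals mark TTTGAA and CCAAT or their reverse complements TTCAAA and ATTGG.
Ccnb2, chr9:70421530-70421734, minus strand: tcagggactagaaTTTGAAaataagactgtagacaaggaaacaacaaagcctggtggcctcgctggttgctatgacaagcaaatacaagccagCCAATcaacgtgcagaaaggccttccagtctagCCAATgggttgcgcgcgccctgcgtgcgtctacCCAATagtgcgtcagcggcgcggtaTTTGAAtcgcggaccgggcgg
Cdc20, chr4:118437319-118437523, minus strand: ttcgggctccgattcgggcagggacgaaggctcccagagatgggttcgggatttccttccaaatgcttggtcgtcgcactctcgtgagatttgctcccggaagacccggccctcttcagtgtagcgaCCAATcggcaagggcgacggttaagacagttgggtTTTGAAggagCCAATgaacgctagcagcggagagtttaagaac
Cenpa, chr5:30666706-30666910, plus strand: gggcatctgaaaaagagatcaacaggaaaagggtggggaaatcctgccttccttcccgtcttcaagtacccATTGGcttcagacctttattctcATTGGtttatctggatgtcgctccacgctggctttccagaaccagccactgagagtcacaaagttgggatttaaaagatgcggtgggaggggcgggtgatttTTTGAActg
Ncapg, chr5:45669745-45669949, plus strand: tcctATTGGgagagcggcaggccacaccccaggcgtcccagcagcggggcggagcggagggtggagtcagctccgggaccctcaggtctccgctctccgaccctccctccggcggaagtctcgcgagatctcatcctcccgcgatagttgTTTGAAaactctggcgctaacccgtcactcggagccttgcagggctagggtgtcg
Top2a, chr11:99024165-99024369, minus strand: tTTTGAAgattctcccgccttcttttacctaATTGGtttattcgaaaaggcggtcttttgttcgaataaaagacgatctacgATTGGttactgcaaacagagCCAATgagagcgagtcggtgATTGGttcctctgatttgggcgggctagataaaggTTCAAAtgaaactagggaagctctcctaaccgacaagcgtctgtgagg
The windows of Ccnb2 and Top2a held 2 matches to TTTGAA each, and those of Cdc20, Cenpa and Ncapg held 1. The CCAAT word, on either strand, occurred 3 times for Ccnb2, 2 times for Cdc20, 2 times for Cenpa, 1 time for Ncapg and 4 times for Top2a. All 5 windows thus carried both words, but they do not stand for all members. Neither word stood in the promoter of Pttg1, the latest gene to rise in that course, and those of Cdc25b and Cenpk held CCAAT alone. Late and early genes were not compared for these words over the 35 promoters.

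With Ebf1-Eng the mitotic genes were lower as a body. Of the 43 measured genes 36 were called lower in Ebf1-Eng cells than with the empty vector, where 5.67% of all genes were called lower, and the other 7 also lay below 0. The median change of the 43 genes was -1.09, against -0.02 over all genes tested, and the changes ran between -1.69 and -0.60. Ebf1-Eng and empty vector arrays overlapped for Ncapg and Ube2c, and such overlap was not counted over all genes. In such bulk samples fewer dividing cells and less RNA per dividing cell cannot be told apart. With the replicate number as a block in the fit, all 43 were called lower. The labels do not state that these numbers pair the arrays. The pairing was taken from correlations within these same arrays (0.29, 0.36 and 0.45). The other counts above and the errors and adjusted p-values below are from limma without this block. The genes given below as not called were called lower in the fit with this block, which rests on that inferred pairing.

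**Figure D1:**
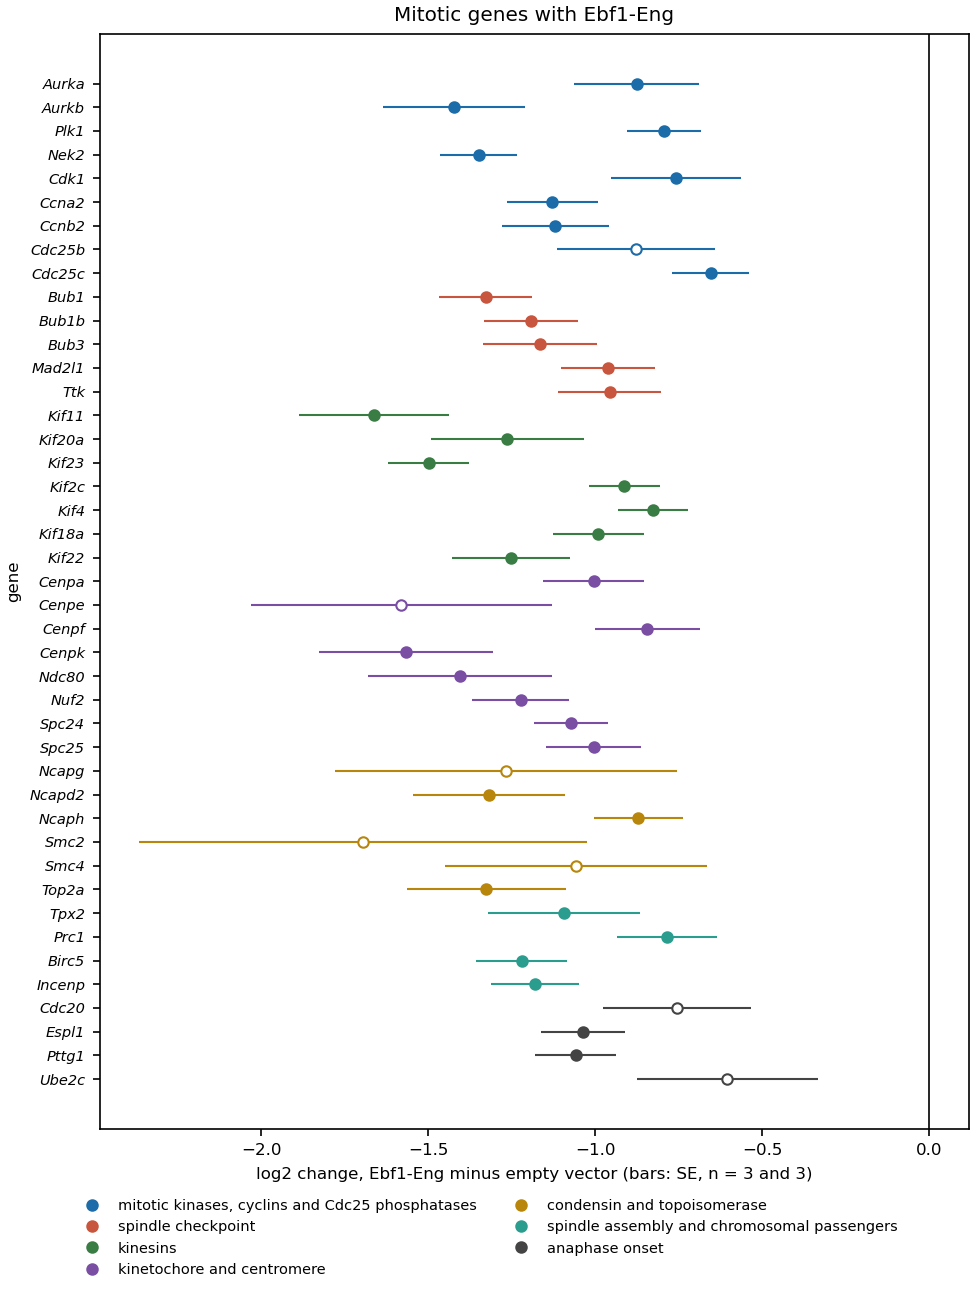
Log2 change of each measured mitotic gene, Ebf1-Eng minus empty vector (x axis), by gene and coloured by sub-group (y axis). Bars are standard errors (n = 3 and 3), filled points were called at an adjusted p under 0.05 and open points were not. All 43 points lie left of 0, and 36 are filled.

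Among the kinases and cyclins 8 of 9 genes were called lower, with a sub-group median of -0.88. Aurkb, the kinase of the chromosomal passenger complex, stood at -1.62, -1.58 and -1.07 in Ebf1-Eng cells, against -0.28, -0.08 and 0.36 with the empty vector. It was 2.68-fold lower (log2 change -1.42 ± 0.21 SE, n = 3 and 3, adjusted p = 0.006, limma), the largest change of its sub-group. Cdk1, the kinase that drives mitotic entry, stood at -0.77, -0.73 and -0.78 in Ebf1-Eng cells, against 0.20, 0.27 and -0.46 with the empty vector. Its Ebf1-Eng arrays agreed closely and the third empty vector array lay nearest to them, and the change was -0.76 ± 0.19 (adjusted p = 0.046). The centrosomal kinase Nek2 had the smallest adjusted p of the sub-group (-1.35 ± 0.11, adjusted p = 0.00089), and the phosphatase Cdc25b missed the threshold (-0.88 ± 0.24, adjusted p = 0.053).

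All 5 checkpoint genes and all 7 kinesins were called lower. Bub1, a checkpoint kinase that sits on the kinetochore, read -1.54, -1.37 and -1.07 in Ebf1-Eng cells, against -0.06, -0.04 and 0.09 with the empty vector, a change of -1.33 ± 0.14 (adjusted p = 0.0018). Kif11, the motor that pushes spindle poles apart, read -1.89, -1.91 and -1.19 in Ebf1-Eng cells, against -0.01, -0.24 and 0.25 with the empty vector (-1.66 ± 0.22, adjusted p = 0.0042). For both genes the third Ebf1-Eng array was the least lowered, and the groups were well apart. Kif23, a motor of the central spindle, changed by -1.50 ± 0.12 with the smallest adjusted p of all 43 genes (0.00076). The smallest kinesin change was that of the chromosome-bound motor Kif4 (-0.83 ± 0.11).

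In the kinetochore sub-group 7 of 8 genes were called lower. Ndc80, a microtubule-binding subunit of the outer kinetochore, read -1.62, -1.65 and -0.95 in Ebf1-Eng cells, against -0.35, -0.15 and 0.50 with the empty vector (-1.41 ± 0.27, adjusted p = 0.017). Its partners in the same complex, Nuf2, Spc24 and Spc25, fell by 1.22, 1.07 and 1.00, so all 4 subunits of the complex were called lower. Cenpe, a kinetochore motor, had the largest change of the sub-group (-1.58 ± 0.45) but was not called (adjusted p = 0.064). It read -1.33, -1.50 and -1.91 in Ebf1-Eng cells, against 1.02, -0.11 and -0.90 with the empty vector, so the empty vector arrays were spread over nearly 2 log2 units.

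The condensin sub-group was called lower for 3 of 6 genes, and its uncalled members shared that spread of the empty vector arrays. Smc2, a core ATPase subunit of condensin, read -1.48, -1.60 and -2.01 in Ebf1-Eng cells, against 1.54, -0.10 and -1.45 with the empty vector (-1.70 ± 0.67, adjusted p = 0.16). Ncapg, a subunit of condensin I, read -0.98, -0.89 and -1.92 in Ebf1-Eng cells, against 0.95, 0.11 and -1.06 with the empty vector (-1.27 ± 0.51, adjusted p = 0.17). The first empty vector array was high and the third low for both genes. Other probe sets of these genes had smaller errors: Ncapg changed by -1.13 ± 0.10 on its other probe set (adjusted p = 0.0011), and Cenpe by -0.78 ± 0.10 (adjusted p = 0.0035). Of the further probe sets of Smc2, 2 were called lower, at -1.16 ± 0.10 and -0.88 ± 0.11, and Smc4, the partner ATPase, was called lower on 1 of its 3 probe sets (-0.69 ± 0.10). When each probe set was tested alone, 41 of the 43 genes had a probe set called lower, and no gene had probe sets called in opposite directions. Top2a, which untangles sister chromatids, read -1.33, -1.78 and -0.86 in Ebf1-Eng cells, against 0.24, -0.05 and -0.18 with the empty vector (-1.33 ± 0.24, adjusted p = 0.012).

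All 4 genes of spindle assembly and the passenger complex were called lower. Birc5, the passenger subunit survivin, read -1.31, -1.28 and -1.06 in Ebf1-Eng cells, against 0.06, 0.16 and -0.22 with the empty vector (-1.22 ± 0.14, adjusted p = 0.0021). Incenp, the scaffold of the same complex, changed by -1.18 ± 0.13. Together with Aurkb, 3 genes of the passenger complex were thus called lower. At anaphase onset Pttg1, which encodes securin, read -1.18, -1.14 and -0.86 in Ebf1-Eng cells, against -0.10, 0.06 and 0.04 with the empty vector (-1.06 ± 0.12, adjusted p = 0.0023). Espl1, the separase that securin restrains, changed by -1.04 ± 0.13. Cdc20 and Ube2c, an activator and an E2 enzyme of the anaphase promoting complex, had the smallest changes of this sub-group and were not called (-0.75 ± 0.22, adjusted p = 0.07, and -0.60 ± 0.27, adjusted p = 0.21). On another probe set Cdc20 was called lower (-0.65 ± 0.14, adjusted p = 0.026). On its remaining one it was not (-0.61 ± 0.19, adjusted p = 0.093).

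Leaving out an array moved the count of genes called lower between 27, without the second Ebf1-Eng array, and 43, without the third empty vector array, and 26 of the 36 genes stayed called whichever array was left out. Of the pro-B and pre-B marker genes 6 of 13 were called lower with Ebf1-Eng (5.67% of all genes). Of the myeloid marker genes 3 of 11 were called higher (7.93% of all genes). The 11 T-cell markers changed by -0.26 to 0.32 and the 13 stromal markers by -0.25 to 0.54. The part of these differences in the mitotic result was not tested.

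**Figure D2:**
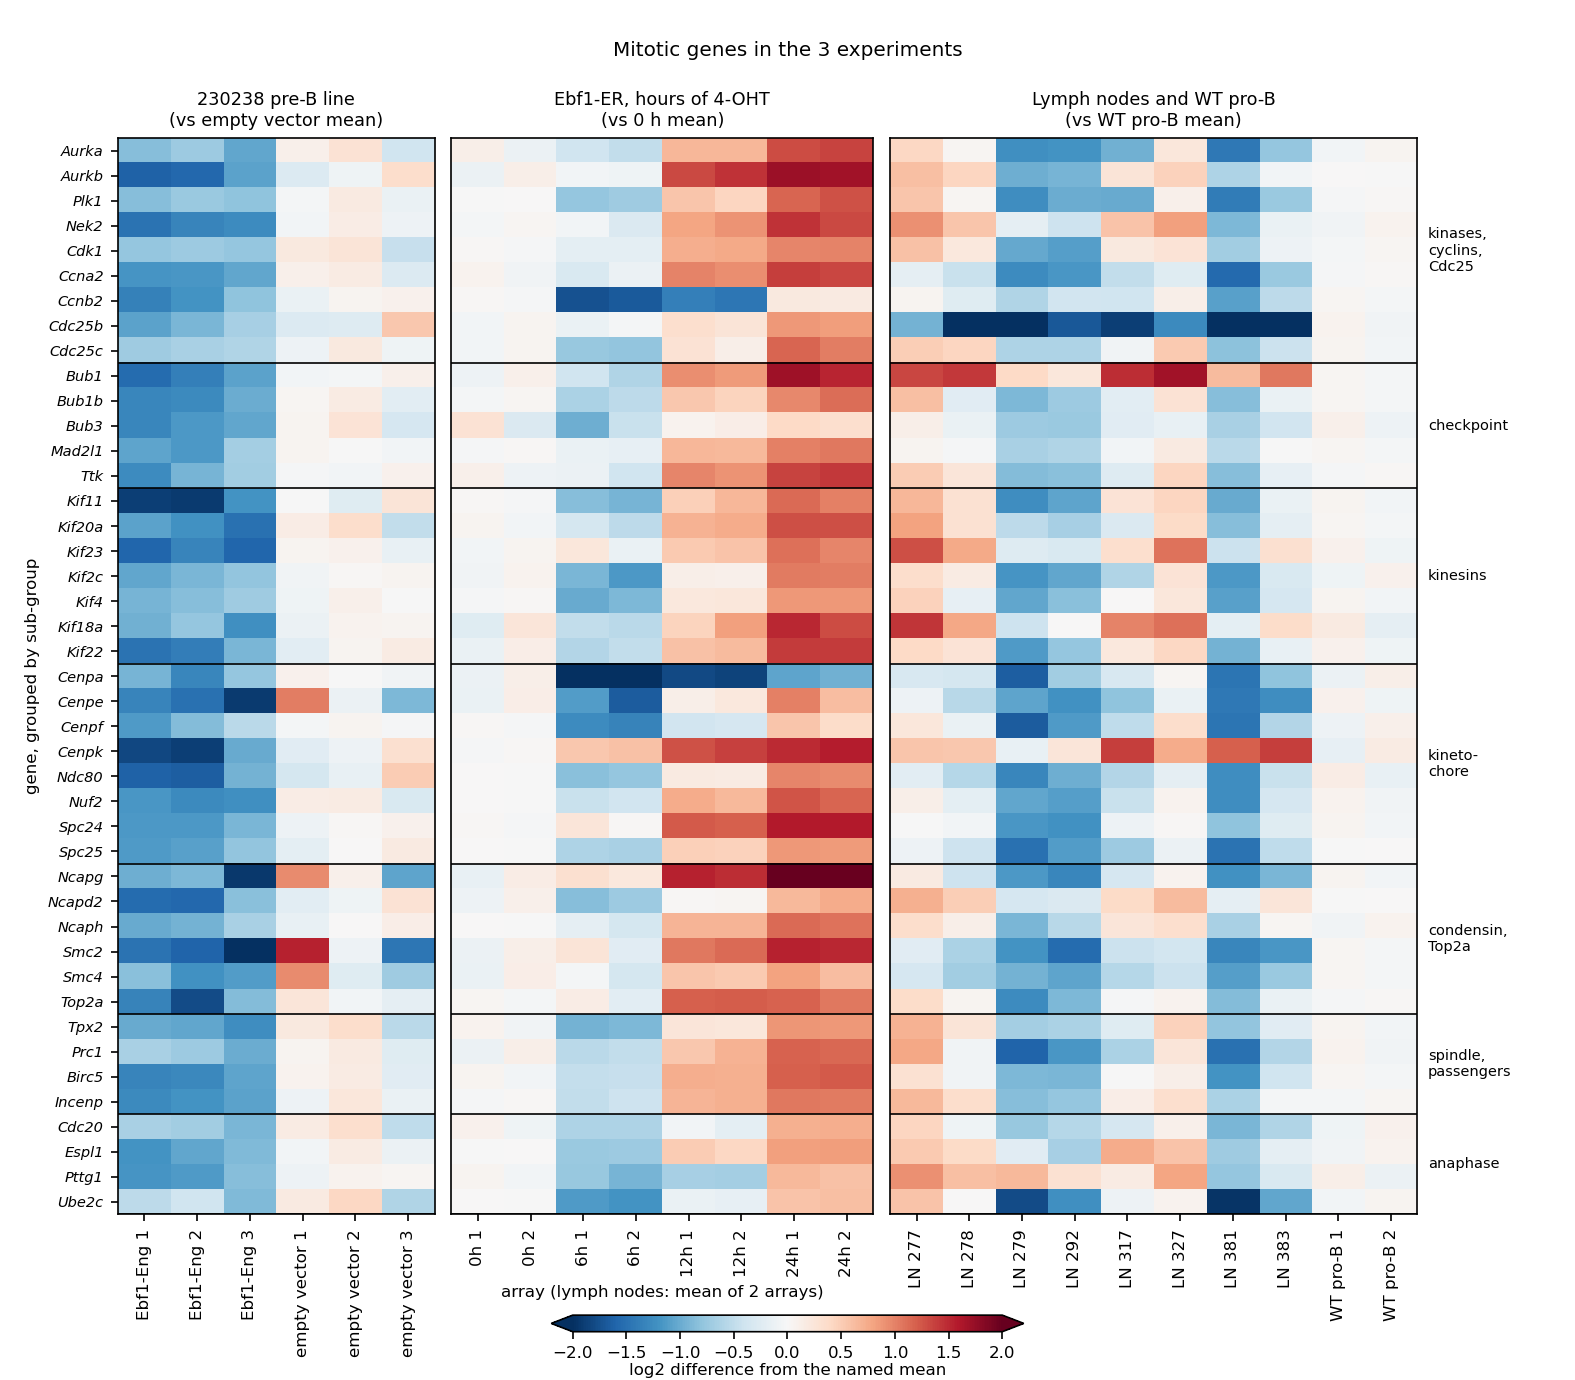
Log2 difference of each measured mitotic gene (rows, grouped by sub-group) on each array (columns) from the empty vector mean, the 0 h mean or the WT pro-B mean. Colour runs between -2 and 2 and values beyond are drawn at the end colours. The Ebf1-Eng columns are blue throughout, the Ebf1-ER columns turn blue for most genes at 6 h and red at 12 and 24 h, and the lymph nodes (LN) differ from each other in step across most genes.

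In the Ebf1-ER course most mitotic genes first fell, and all measured ones then rose. At 6 h 27 of 43 were called lower than at 0 h, where 16.4% of all genes were called lower, and 1 was called higher, where 18.6% of all genes were. At 24 h 40 were called higher than at 0 h (21.0% of all genes), and 1 was called lower (17.8% of all genes). The comparison of 24 h with 6 h, which leaves out the 0 h arrays, called all 43 genes higher, where 4.92% of all genes were called higher, with a median change of 1.64 and a range of 0.91 to 2.20. The 3 comparisons with 0 h share the 0 h arrays and are therefore not independent of each other. The fall at 6 h and the rises from 6 h likewise share the 6 h arrays, with opposite sign. The 12 h against 6 h and 24 h against 12 h comparisons share the 12 h arrays in the same way.

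The fall at 6 h was uneven across the sub-groups. It was called for 4 of 4 genes of anaphase onset, 4 of 4 of spindle assembly and passengers, 6 of 8 kinetochore genes, 5 of 7 kinesins, 3 of 5 checkpoint genes and 4 of 9 kinases and cyclins, but for 1 of 6 genes of condensin and topoisomerase, and the difference between sub-groups was not tested. The largest fall was that of Cenpa, the histone variant that marks centromeres. It read -2.90 and -2.63 at 6 h, against -0.12 and 0.12 at 0 h (-2.76 ± 0.13, n = 2 and 2, adjusted p = 6.8e-06), and its other 2 probe sets were also called lower, at -1.87 and -1.12. Ccnb2, the B-type cyclin measured here, read -1.74 and -1.68 at 6 h, against 0.03 and -0.03 at 0 h (-1.71 ± 0.09). Cenpe, Cenpf, Ube2c and the microtubule-depolymerising kinesin Kif2c followed, with changes of -1.39, -1.29, -1.17 and -1.03.

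Several genes of the set had not fallen at 6 h. Cenpk, a subunit of the inner kinetochore network, was called higher (0.56 ± 0.09, adjusted p = 0.0018), although its other 2 probe sets were not called (-0.09 and -0.27). Ncapg read 0.32 and 0.21 at 6 h, against -0.15 and 0.15 at 0 h, and was not called (0.26 ± 0.12, adjusted p = 0.14). Aurkb (-0.07 ± 0.11), Smc2 (0.02 ± 0.16) and Kif23 (0.05 ± 0.13) lay near 0. Top2a also lay near 0 on the probe set used (-0.03 ± 0.13), but was called lower on another (-0.44, adjusted p = 0.0056).

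At 12 h the set was split in level against 0 h while nearly all of it was on the rise. Compared with 6 h, 37 of 43 genes were called higher at 12 h, where 1.5% of all genes were. The median change was 1.10, and the 6 genes not called were Ccnb2, Cdc25b, Bub3, Kif23, Cdc20 and Pttg1. Compared with 0 h, 29 were called higher (19.9% of all genes), and 4 were still called lower (also 19.9% of all genes). Those 4 were Cenpa (-1.83 ± 0.13), Ccnb2 (-1.40 ± 0.09), Pttg1 (-0.67 ± 0.10) and Cenpf (-0.36 ± 0.10), the last a kinetochore protein that accumulates late in the cell cycle.

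Between 12 and 24 h 26 genes were called higher, where 2.48% of all genes were, with a median change of 0.55. This count was the least stable of the course when arrays were left out. Leaving out any of the 12 h or 24 h arrays left 2 genes called, and these were Ccnb2 and Pttg1 each time. None of the 39 DNA replication genes was called by limma in this interval. An unadjusted p under 0.05 was found for 1 of them, against 18.8% of all genes.

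**Figure D3:**
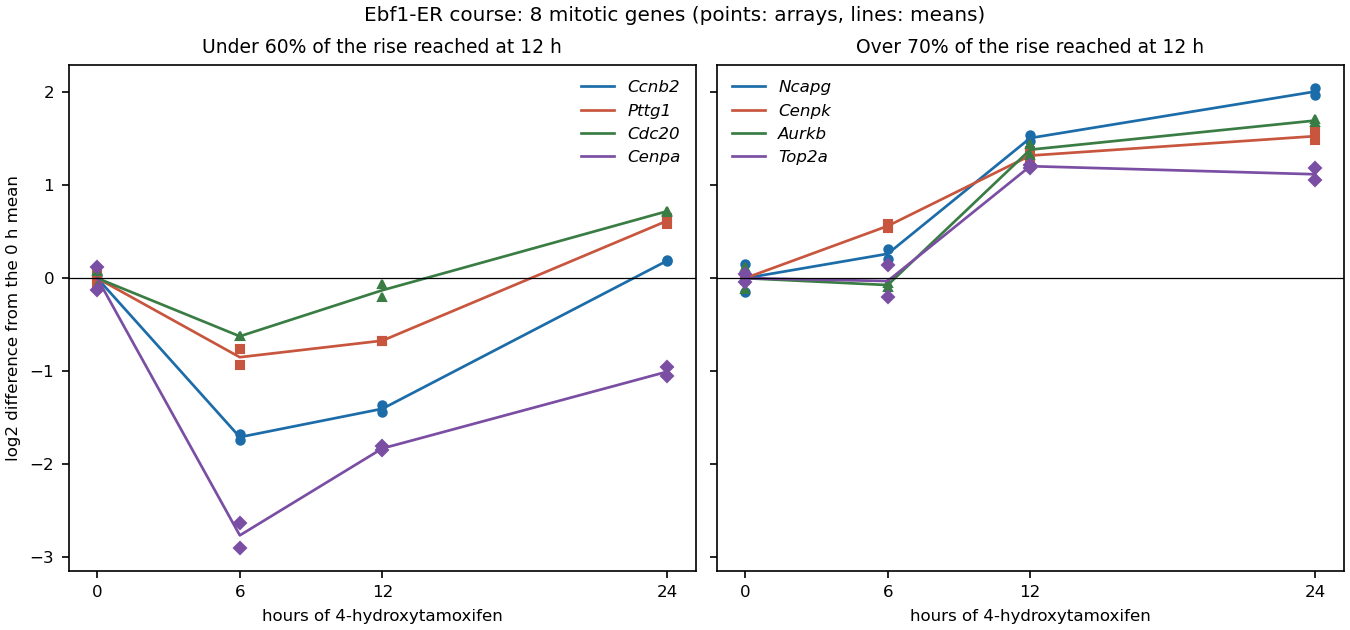
Log2 difference from the 0 h mean (y axis) against hours of 4-hydroxytamoxifen (x axis) for 8 mitotic genes in Ebf1-ER cells, with points for the 2 arrays per time and lines through their means. On the left, Ccnb2 and Pttg1 change little between 6 and 12 h and climb by 24 h, and Cenpa stays below 0 from 6 h on. On the right, Aurkb, Cenpk, Ncapg and Top2a make most of their rise by 12 h.

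The members thus differed in when they rose. As a measure of timing, the share of the 6 h to 24 h rise that was reached at 12 h was taken on the log2 scale, which carries no error of its own. Its median over the 43 genes was 67.2%, with quartiles of 56.6% and 73.9%. The sub-group medians were 59.7% for kinesins, 63.0% for kinases and cyclins, 68.2% for the checkpoint, 68.9% for spindle assembly and passengers, 69.5% for the kinetochore, 71.3% for condensin and topoisomerase, and 47.4% for anaphase onset. The 26 DNA replication genes called higher at 24 h than at 6 h had a median of 85.8%.

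The latest genes were Pttg1 (12.1%), Ccnb2 (16.1%), Cdc20 (36.8%) and Cdc25b (40.5%), the only ones under 50% on the probe sets used. Pttg1 read 0.05 and -0.05 at 0 h, -0.76 and -0.94 at 6 h, -0.67 and -0.67 at 12 h, and 0.65 and 0.59 at 24 h. Ccnb2 read -1.37 and -1.44 at 12 h and 0.19 and 0.19 at 24 h. Both were thus still low at 12 h and had passed the 0 h mean by 24 h. Cdc20 read -0.62 and -0.62 at 6 h, -0.06 and -0.20 at 12 h, and 0.71 and 0.73 at 24 h, and its 3 probe sets gave shares of 35.5% to 36.8%. The probe sets of Pttg1 were less uniform, at 6.86%, 12.1% and 52.9%. Cenpa gave 53.1% on the probe set used and 19.0% on another. Over single probe sets, 12 of the 84 that were called higher at 24 h than at 6 h, from 8 genes, gave under 50%.

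At the early end stood Top2a (107.6%), Aurkb (82.3%), Smc4 (81.5%), Cdk1 (79.2%) and Cenpk (78.4%). Top2a read 0.05 and -0.05 at 0 h, 0.14 and -0.21 at 6 h, 1.19 and 1.22 at 12 h, and 1.18 and 1.05 at 24 h. It alone among the 43 lay lower at 24 h than at 12 h (-0.09 ± 0.13, adjusted p = 0.8), and another of its probe sets gave a share of 88.0%. Aurkb read -0.12 and 0.12 at 0 h, -0.05 and -0.09 at 6 h, 1.32 and 1.44 at 12 h, and 1.71 and 1.68 at 24 h. Cdk1 read 0.03 and -0.03 at 0 h, -0.20 and -0.20 at 6 h, 0.73 and 0.75 at 12 h, and 0.97 and 1.00 at 24 h. For these genes the arrays of a time lay close together, and the 12 h arrays were nearer to those of 24 h than to those of 6 h.

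The difference between the intervals was tested with a contrast of the change after 12 h minus the change before it, chosen after these values were seen. Ccnb2 was the only member called (1.29 ± 0.15, adjusted p = 0.045, limma), where 0.17% of all genes were called in either direction. Pttg1 followed in the same direction (1.11 ± 0.17, adjusted p = 0.054), and Top2a in the other (-1.32 ± 0.22, adjusted p = 0.066). An unadjusted p under 0.05 (limma) was found for 28 of the 43, against 15.0% of all genes. For 26 of these the change after 12 h was the smaller, and for 2 it was the larger. Ccnb2 was no longer called when any of the 6 arrays involved was left out, which leaves 1 array at that time.

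**Figure D4:**
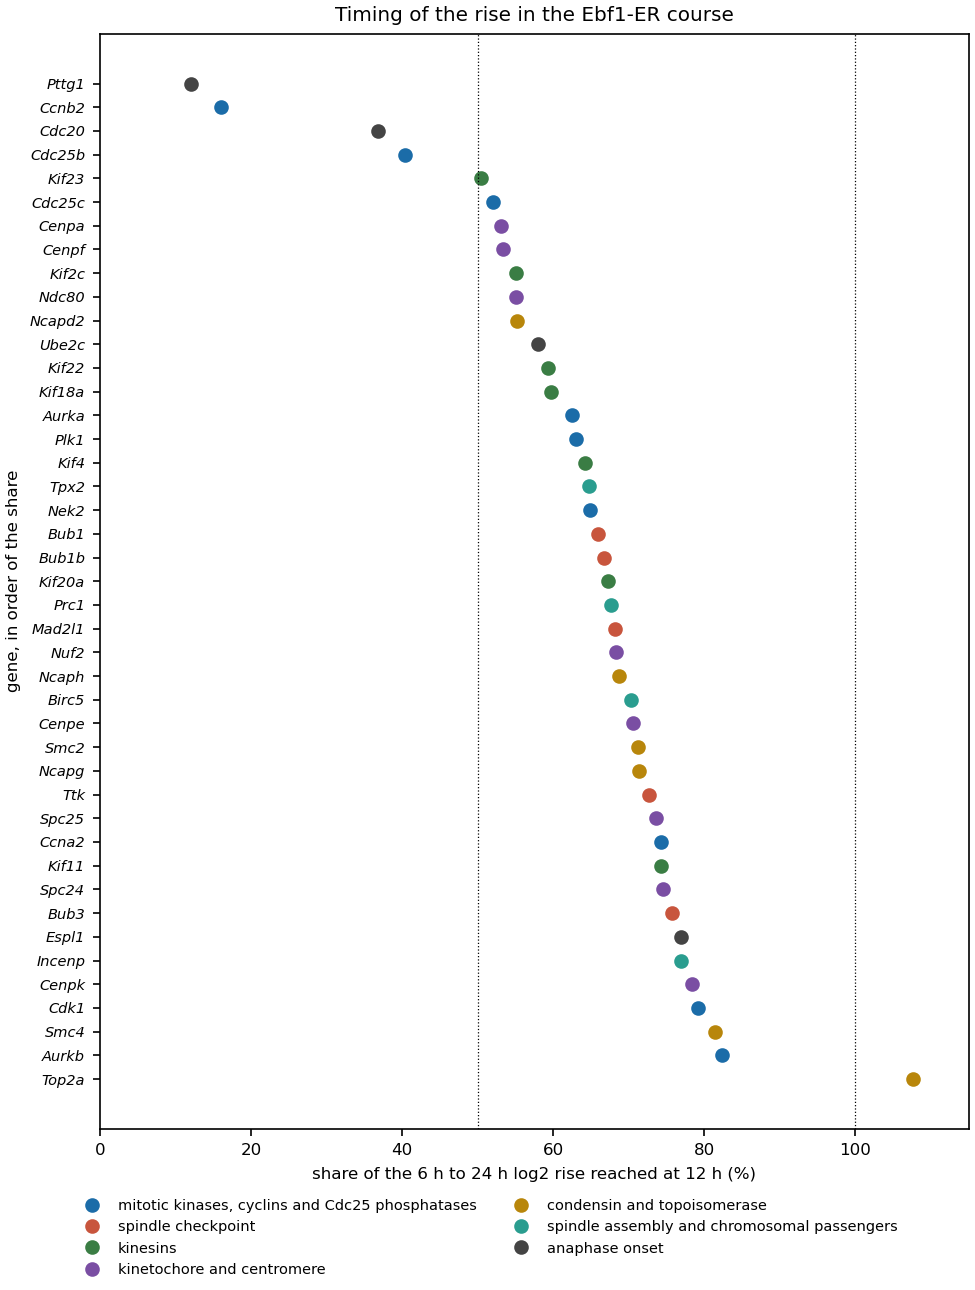
Share of the log2 rise between 6 and 24 h that was reached at 12 h (x axis, percent) for each measured mitotic gene, in order and coloured by sub-group (y axis). The left dotted line marks 50% and the right one the full rise. Pttg1, Ccnb2, Cdc20 and Cdc25b lie under 50%, and Top2a lies at 107.6%.

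By 24 h the largest rises over 6 h in each sub-group were those of Plk1 (1.96 ± 0.09), Bub1 (2.11 ± 0.12), Kif2c (2.07 ± 0.11), Cenpe (2.20 ± 0.21), Ncapg (1.74 ± 0.12), Tpx2 (1.79 ± 0.09) and Ube2c (1.76 ± 0.08). Plk1, the Polo kinase of mitotic entry and exit, read 1.17 and 1.27 at 24 h, against -0.78 and -0.71 at 6 h. Kif2c read 1.04 and 1.03 at 24 h, against -0.92 and -1.15 at 6 h. Ube2c read 0.57 and 0.61 at 24 h, against -1.14 and -1.20 at 6 h. In all 3 cases the 24 h arrays lay above 0 and the 6 h arrays below it.

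Cenpe read 1.00 and 0.61 at 24 h, against -1.12 and -1.67 at 6 h. Bub1 read 1.70 and 1.52 at 24 h, against -0.402 and -0.605 at 6 h. Tpx2, which starts microtubule growth near chromosomes, read 0.88 and 0.86 at 24 h, against -0.94 and -0.90 at 6 h. Kif11 read 1.14 and 1.00 at 24 h, against -0.85 and -0.92 at 6 h, Ndc80 0.97 and 0.94 against -0.83 and -0.78, and Birc5 1.20 and 1.22 against -0.47 and -0.46. No 24 h array overlapped a 6 h array for any of the 43 genes. The same held for 24 h against 12 h, where 26 were called, so with 2 arrays per time such separation says little. Its share over all genes was not counted.

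Against 0 h, the largest change at 24 h was that of Ncapg, which read 2.04 and 1.97 at 24 h, against -0.15 and 0.15 at 0 h (2.01 ± 0.12, adjusted p = 1.7e-05). Cenpa was the 1 gene called lower, at -1.05 and -0.96 at 24 h, against -0.12 and 0.12 at 0 h, so that it fell by 1.00 ± 0.13 (adjusted p = 0.00048). Its other probe sets were called lower too, at -0.65 and -0.29. Ccnb2 (0.19 ± 0.09, adjusted p = 0.13) and the checkpoint gene Bub3 (0.36 ± 0.22, adjusted p = 0.25) were not called. Bub3 was called higher on another probe set (0.66, adjusted p = 0.0015).

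Some marker genes of other cell types were also called in this course, in which the cells grew on OP9 stroma. Of all genes, 21.0% were called higher and 17.8% lower at 24 h than at 0 h. At 24 h 7 of 13 stromal markers were called lower than at 0 h, with a median change of -0.85, and 2 of 13 were called lower than at 6 h (4.39% of all genes), with a median of -0.46. Of 7 markers of NK and innate lymphoid cells, 4 were called lower at 24 h than at 0 h, with a median change of -0.86, and 3 were called lower than at 6 h. Against 0 h, 5 of 11 T-cell markers and 2 of 8 mature B markers were called lower at 24 h, with medians of -0.15 and -0.07. Of 11 myeloid markers 4 were called lower and 2 higher, and 1 of 7 erythroid markers was called higher. Markers of the pro-B and pre-B stage were called higher for 3 of 13 genes and lower for 5 of 13 at 24 h against 0 h. The smaller of these counts lie near the shares of all genes. The part of the markers in the mitotic result was not tested.

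Other genes of mitosis, 120 in 7 lists, moved less uniformly. With Ebf1-Eng 56 were called lower and 3 higher (7.93% of all genes were called higher), with a median of -0.61. Among other kinetochore subunits 19 of 27 were called lower, led by Nsl1 of the Mis12 complex (-1.54 ± 0.10), and among 15 further condensin and cohesin genes 6 were, led by the cohesin acetyltransferase Esco2 (-2.17 ± 0.19). Of 16 genes of the anaphase promoting complex and its regulators 2 were called lower, its inhibitor Fbxo5 (-1.42 ± 0.20) and its subunit Cdc16 (-0.49 ± 0.10). The 3 called higher were the transport kinesin Kif1b (1.94 ± 0.18), the phosphatase Cdc14b (1.60 ± 0.30) and the kinase Nek9 (0.54 ± 0.13).

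At 24 h against 6 h in the Ebf1-ER course 68 of the 120 were called higher, with a median of 0.62. The largest rises were those of Nusap1, a microtubule-bundling protein (2.21 ± 0.11), and Ska1, a kinetochore protein (2.12 ± 0.10). Among regulators of mitotic transcription Mybl2, which encodes B-Myb, was called lower with Ebf1-Eng (-2.06 ± 0.35), and was called higher already at 6 h against 0 h (1.60 ± 0.10) and at 24 h (2.17 ± 0.10). DNA replication genes were called lower with Ebf1-Eng for 29 of 39. In the Ebf1-ER course 36 of 39 were called higher at 6 h than at 0 h, with a median of 1.02, against a median of -0.51 for the mitotic genes.

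In the lymph nodes few mitotic genes were called against WT pro-B cells. Of 43 genes limma called 2 lower, where 8.66% of all genes were. None was called higher, where 11.3% of all genes were. An unadjusted p under 0.05 (limma) was found for 7 of the 43, against 32.5% of all genes. The median change was -0.34, against 0.02 over all genes. Cdc25b, the phosphatase that activates Cdk1, lay below both WT arrays in 8 of 8 nodes, with a lowest node of -3.89, a median of -1.95 and a highest of -0.95 (-2.06 ± 0.59, n = 8 and 2, adjusted p = 0.036). Smc4 was lower in 8 of 8 nodes as well, at -1.10, -0.72 and -0.33 by the same measures (-0.73 ± 0.20, adjusted p = 0.028), and its other 2 probe sets were not called. Without either WT array limma called 0 of 43, and 2 had an unadjusted p under 0.05 in each case.

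The other 41 members were not called. Bub1 was above both WT arrays in 8 of 8 nodes (0.23, 1.19 and 1.68 at the lowest, median and highest node) but was not called (1.03 ± 0.36, adjusted p = 0.076). With the lymph node as a random block it was called higher (1.03, adjusted p = 0.024), as it was without node 292 (1.14, adjusted p = 0.031). Its other probe set gave -0.09 ± 0.35. Kif18a, a kinesin that dampens chromosome movement, changed by 0.50 ± 0.45, the spindle bundling protein Prc1 by -0.57 ± 0.56 and Ube2c by -0.68 ± 0.63. Cenpe (-0.82 ± 0.34), Smc2 (-0.86 ± 0.33), Ccna2 (-0.76 ± 0.34), Ndc80 (-0.69 ± 0.30) and Spc25 (-0.74 ± 0.38) lay below both WT arrays in 8 of 8 nodes. They were not called. Nodes and WT arrays did not overlap for 8 of the 43 genes. The share of such genes over all genes was not counted, and with 2 WT arrays this separation says little. Cdk1 ran between -1.09 and 0.59 over the nodes, Aurkb between -0.98 and 0.60, Kif11 between -1.24 and 0.66, Ndc80 between -1.30 and -0.18, Ncapg between -1.30 and 0.19, Top2a between -1.26 and 0.37, and Birc5 between -1.19 and 0.31. Except for Ndc80, these node ranges enclosed the WT values.

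Nodes and WT cells differed in other measures beside these results. Myeloid markers were called lower in the nodes for 9 of 11 genes (median -2.53) and stromal markers for 7 of 13 (median -0.74), and of erythroid markers 4 of 7 were called lower and 1 higher. The 3′ minus 5′ difference of the platform's Gapdh control probe sets, a sign of RNA quality, ran between -0.31 and -0.16 over the 16 node arrays, against -0.02 and 0.02 on the WT arrays, and that of the actin controls between 0.06 and 0.20, against -0.08 and 0.08. The part of these differences in the mitotic result was not tested. Of all 120 other mitotic genes measured 11 were called higher in the nodes, against 11.3% of all genes, and 8 were called lower, against 8.66%. Among them 6 of 16 of the anaphase promoting complex were called higher in the nodes, led by Cdc23 (1.08 ± 0.22), and E2f2, a regulator of cell-cycle transcription, was called lower (-2.03 ± 0.41).

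Between the nodes the set varied in step. All 43 genes differed between the 8 nodes over their 16 arrays (limma's moderated F test), where 59.7% of all genes did, a test whose error is the spread of 2 arrays from the same node, which may be technical. The median over the 43 genes, relative to the WT mean, was 0.43 in node 277, 0.24 in node 327, 0.04 in node 278, -0.21 in node 317, -0.30 in node 383, -0.83 in node 292, -0.91 in node 381 and -0.98 in node 279. Node 277 was the highest of the 8 for 32 genes and node 327 for 9, while node 381 was the lowest for 19 genes, node 279 for 18 and node 292 for 6. The median difference between the 2 arrays of a node lay between 0.03 and 0.10.

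Cenpk went against this order: it was highest in node 383 (1.39) and stood at 1.20 in node 381, where the median of the set was -0.91. Pttg1 departed from it too, at 0.65 in node 279, where the median of the set was -0.98, and at 0.31 in node 292, where it was -0.83, while it stood at 0.17 in node 317. The order of the nodes for DNA replication genes also differed, with node 383 first (0.65) and node 292 last (-0.18). T-cell markers had their highest medians relative to WT in node 279 (3.17), node 383 (1.61) and node 381 (1.17), where the mitotic median was below 0. In nodes 292 and 317, where the mitotic median was also below 0, they stood at 0.23 and -0.11. They stood at -0.16 in node 277, -0.25 in node 327 and -0.34 in node 278. Mature B markers had medians of 1.37 in node 279, 0.92 in node 383, 0.68 in node 292, 0.60 in node 381 and 0.41 in node 278, against -0.79 in node 277, -0.83 in node 327 and -0.84 in node 317. Markers of NK and innate lymphoid cells stood at 2.66 in node 279, 0.76 in node 383 and 0.25 in node 381, and between -0.85 and -0.24 in the other 5 nodes. Both lists were highest in node 279, the node with the lowest mitotic median. The part of these markers in the order of the nodes was not tested.

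**Figure D5:**
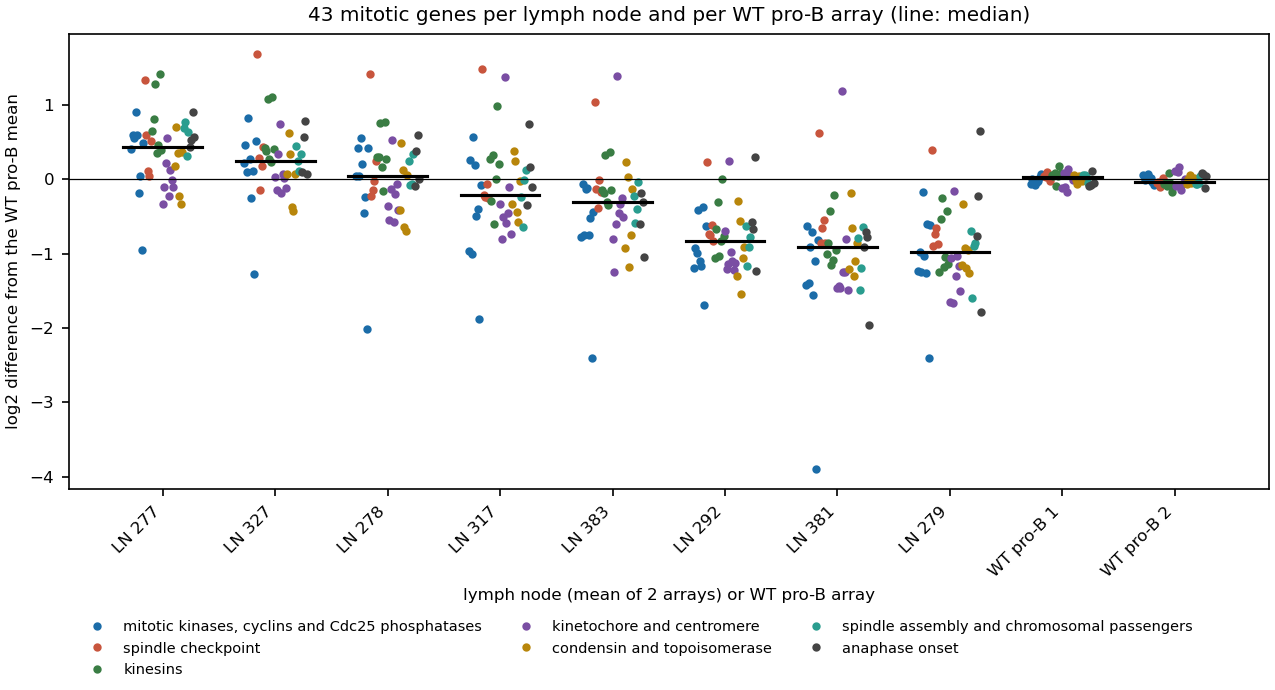
Log2 difference from the WT pro-B mean (y axis) of the 43 measured mitotic genes in each lymph node (LN, mean of 2 arrays) and on each WT pro-B array (x axis). Points are genes coloured by sub-group, and lines are medians, which run from 0.43 in node 277 to -0.98 in node 279 while the WT arrays lie close to 0 by construction.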

How the data were processed

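Transcript abundance was measured on 32 Affymetrix mouse arrays from 3 experiments, with RNA isolated by a column kit and amplified from the 3′ end, per the labels' protocols. The authors deposited expression values of 45101 probe sets on a logarithmic scale, which was taken here as log2. Per the submitters' processing notes these come from RMA, which corrects background, normalises arrays and summarises probes. The sources used here do not state the logarithm's base. The median of every probe set was 0 over the arrays of the 230238 and of the Ebf1-ER experiment, and of 10846 probe sets over those of the tumour experiment, so values had been centred, and expression levels and signal over background could not be read. The number of arrays limits the precision.

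Gene names came from the array's annotation, updated with a RefSeq gene table: 34958 probe sets had 1 symbol, 932 several and 9211 none, and only the first kind was used. Per gene the probe set with the largest variance within an experiment was kept, which favours large differences. Each experiment was fitted separately in R 4.3.3 by limma 3.58.1 (lmFit, then eBayes), and two-sided p-values were adjusted by Benjamini-Hochberg over 18194 genes, with a threshold of 0.05. The 2 arrays of a lymph node were averaged for the comparison with WT. Outside the lymph nodes the labels do not say that replicates were independent cultures or animals, so p-values measure only a spread between samples that may be technical. The procedure was tested on simulated data with independent noise for each array, or for each node in the comparison with WT. Deviations shared by same-numbered arrays were not part of that test.

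Same-numbered arrays of the 230238 experiment deviated together (correlations of 0.29, 0.36 and 0.45 of their deviations from the group means), so the numbers were taken to pair them. In the Ebf1-ER experiment the correlations ran between -0.25 and 0.15, so the numbers were not taken to pair the arrays. The reported fits used no pairing in either experiment, and the replicate block was an alternative only.

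The members and all lists were chosen with earlier results of these data known. Any member could be named. Per-array values are given for Cdk1, Aurkb, Kif11, Ndc80, Ncapg, Top2a and Birc5, for the member with the largest absolute change in each sub-group and experiment, and for small sets of members that went against the rest. For the lymph nodes, changes or values over the nodes are given in their place. Of other lists, the largest changes in each direction and up to 3 genes against the majority were named. Genes named for their timing, and the probe sets quoted beside the main ones, were chosen after their values were seen. Alternatives were the mean of all probe sets, each probe set alone, a filter on variance, robust eBayes, centred arrays, the replicate block, fits on only the times compared, and leaving out each array or node. Protein sequences were not used here.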

Additional observations from a re-analysis of the deposited data

How the results depend on the processing

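No member changed direction past the threshold under any alternative run. Counts stayed within 1.5 times of those reported except for 24 h against 12 h, lymph nodes against WT and the contrast of the 2 intervals. For 24 h against 12 h 26 were reported, and far fewer were called when an array was left out, which leaves 1 array at that time. For lymph nodes against WT 2 were reported lower and none higher. There the mean of all probe sets gave 1, each probe set alone 4, the lymph node as a random block 5, and leaving out a node or WT array 0 to 2 (1 without node 278, node 279 or node 383, and 0 without either WT array), all of them lower. Beside these, Bub1 was called higher with the random block (adjusted p = 0.024) and without node 292 (adjusted p = 0.031). The cause was not tested. Leave-one-out ranges elsewhere were 27 to 43 for Ebf1-Eng against empty vector, 24 to 26 genes lower at 6 h, 25 to 29 higher at 12 h and 38 to 40 higher at 24 h against 0 h, 26 to 34 for 12 h against 6 h and 41 to 42 for 24 h against 6 h, with 43 between nodes each time. The replicate block gave 43 for Ebf1-Eng. In the Ebf1-ER course the numbers were not taken to pair the arrays. There the block gave 26 genes lower at 6 h, 28 higher at 12 h and 40 at 24 h against 0 h. It also gave 36 for 12 h against 6 h, 18 for 24 h against 12 h and 43 for 24 h against 6 h. For the contrast of the 2 intervals, added after seeing the data, 1 member was reported as called. There the mean of all probe sets called 4 members and the block 0. With the block 27 had an unadjusted p under 0.05 (limma), 2 higher and 25 lower. Signal over background could not be read from centred values.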
